A study of Mus musculus with 18 samples.

Results

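The growth hormone and IGF1 axis was followed through the day with 10 genes in whole mouse livers, namely Igf1, Igfals, Igfbp2, Igfbp4, Ghr, Stat5a, Stat5b, Cish, Socs2 and Bcl6. They were taken by gene symbol from a table of 14451 genes, and all 10 were listed. RNA of 18 livers had been sequenced, 3 at each of 6 zeitgeber times (ZT1, ZT5, ZT9, ZT13, ZT17 and ZT21), where ZT counts the hours after lights on in a cycle of 12 h light and 12 h dark. The animals were wild-type (WT) males aged 8–9 weeks with no treatment given in the labels, so the groups differed by the time of collection. Growth hormone itself comes from the pituitary and was not measured. Each group held 5 mice, of which the 3 with the best RNA were sequenced, and each liver came from another animal. Every level given here is the authors' normalized value, an estimated read count scaled to 1000000 reads of a library size that the authors had adjusted. Whole liver mixes cell types, so fewer cells of a type and less RNA per cell cannot be told apart.

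Growth hormone leaves the pituitary in pulses, and in male rodents the pulses are separated by long pauses. On hepatocytes it binds the growth hormone receptor (Ghr), whose partner kinase JAK2 phosphorylates STAT5A and STAT5B, and these enter the nucleus and switch genes on or off. Igf1, Igfals, Socs2 and Cish are induced in this way, and Bcl6, a repressor that holds female-biased liver genes down in males, is turned down by it. Liver is the main source of the IGF1 in blood, where IGF-binding proteins and the acid-labile subunit (Igfals) carry it. All 10 genes are protein-coding and are placed here by GENCODE M21 on GRCm38. The secreted proteins are encoded by Igf1 (chr10:87858265-87937042, plus strand), Igfals (chr17:24865997-24882010, plus strand), Igfbp2 (chr1:72824503-72852474, plus strand) and Igfbp4 (chr11:99041244-99054392, plus strand). The receptor and the transcription factors are encoded by Ghr (chr15:3317760-3583492, minus strand), Stat5a (chr11:100859351-100885169, plus strand) and Stat5b (chr11:100780731-100850724, minus strand). The inhibitors and the repressor are encoded by Cish (chr9:107296026-107302784, plus strand), Socs2 (chr10:95385362-95417180, minus strand) and Bcl6 (chr16:23965052-23988852, minus strand).

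Depth lay between 10268168 and 23242842 estimated reads per liver, and the 10 genes had between 36.2 (Cish in ZT21 replicate 2) and 21749 (Igfbp4 in ZT5 replicate 3) reads behind a value, so none was near the limit of detection in any liver. Hepatocyte markers were the highest of the cell type markers in every library, with a sum for 5 genes between 66823 and 97268, and the lowest sums were those of the 3 livers of ZT9 (66823 to 71263). By 8 clock genes, 17 of the 18 livers were nearest to the mean of their own time point, and ZT5 replicate 3, the most deeply sequenced library, was nearest to ZT9.

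Promoter windows from RefSeq (GRCm38.p6, 250 bases before to 50 bases after an annotated transcript start) were found for 9 of the 10 genes, 16 windows in all, and none was found for Socs2. TTCNNNGAA, the palindromic letters that STAT5 and other STAT proteins recognise, was in 8.30% of all 32851 windows. It was in 5 of the 16 windows here, which belong to 3 genes, Cish, Bcl6 and Igfals. The windows of Cish and of the downstream Bcl6 start are shown because they hold more than 1 match and belong to the genes that varied most between livers. Capitals mark each match, and the pattern, though not its middle letters, reads the same on both strands. No pair of matches overlaps.
Cish, chr9:107296409-107296708, plus strand: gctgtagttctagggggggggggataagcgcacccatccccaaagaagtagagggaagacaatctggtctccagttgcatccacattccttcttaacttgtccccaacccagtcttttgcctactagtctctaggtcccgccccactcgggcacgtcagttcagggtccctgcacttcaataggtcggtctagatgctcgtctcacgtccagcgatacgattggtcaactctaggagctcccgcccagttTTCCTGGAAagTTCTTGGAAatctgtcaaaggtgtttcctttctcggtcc
Bcl6, downstream start, chr16:23981234-23981533, minus strand: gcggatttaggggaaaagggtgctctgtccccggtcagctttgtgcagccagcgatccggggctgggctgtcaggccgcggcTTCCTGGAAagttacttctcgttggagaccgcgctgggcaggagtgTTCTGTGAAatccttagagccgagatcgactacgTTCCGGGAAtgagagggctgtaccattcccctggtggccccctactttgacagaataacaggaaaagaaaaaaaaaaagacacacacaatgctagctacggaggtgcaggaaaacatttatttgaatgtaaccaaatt

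The Cish window had 2 matches, at chr9:107296659-107296667 and chr9:107296670-107296678, and both lie in an exon of Cish in the GENCODE M21 annotation. The Bcl6 window had 3 matches, 168, 122 and 88 bases before the annotated start, in an intron of Bcl6. The upstream window of Bcl6 had 1 match, outside the gene, and 1 copy of CACGTG, the E-box that clock proteins bind, which was in 7.15% of all windows. Among the 16 windows, 1 of Igfbp2 also held CACGTG, 142 bases before its annotated start and outside the gene. Igfals had 1 match in each of 2 intronic windows. TTATGTAA, the D-box of the PAR bZIP factors, searched on both strands, was in none of the 16 windows and in 0.938% of all windows.

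Over the day, 4 of the 10 genes had a 24 h rhythm, namely Igfbp4, Igfals, Stat5a and Stat5b, and the ligand Igf1 and the receptor Ghr stayed within a narrow range. Cish, Socs2 and Bcl6, the feedback inhibitors and the repressor downstream of STAT5, differed more between livers of the same time point than nearly all genes with a mean of at least 1. The 24 h test was a cosine and sine fitted to log2(value + 1) with limma, where an adjusted p below 0.05 over the 14449 genes above the floor counts as a call. It called 35.3% of all genes, so 4 of 10 is near the background. The period was fixed at 24 h because the 6 time points span 1 cycle. A rhythm here is thus a fit to 1 day, and neither its period nor its return on another day was observed. The limma F test over the 6 time points, which assumes no wave form, called the same 4 genes (26.3% of all genes), and JTK, a rank test for cosine orders, called Igfbp4, Igfals and Stat5b (14.0% of all genes). The median fitted peak-to-trough difference was 0.83 (log2) for the 10 genes and 0.32 for all genes tested. The largest of the 10 were those of Bcl6, Cish and Socs2 (1.30, 1.26 and 1.11), which had no call. A fitted difference cannot be negative and grows with the spread between livers, so these medians do not compare the strength of rhythms. The livers of the highest and the lowest time point did not overlap for 6 of the 10 genes, against 70.8% of all genes. Without ZT5 replicate 3, the liver whose clock genes were nearest to ZT9, the 24 h calls of the 4 genes held, with limma adjusted p of 4.28e-06 for Igfbp4, 0.00192 for Igfals, 0.00791 for Stat5a and 0.00038 for Stat5b.

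**Figure D1:**
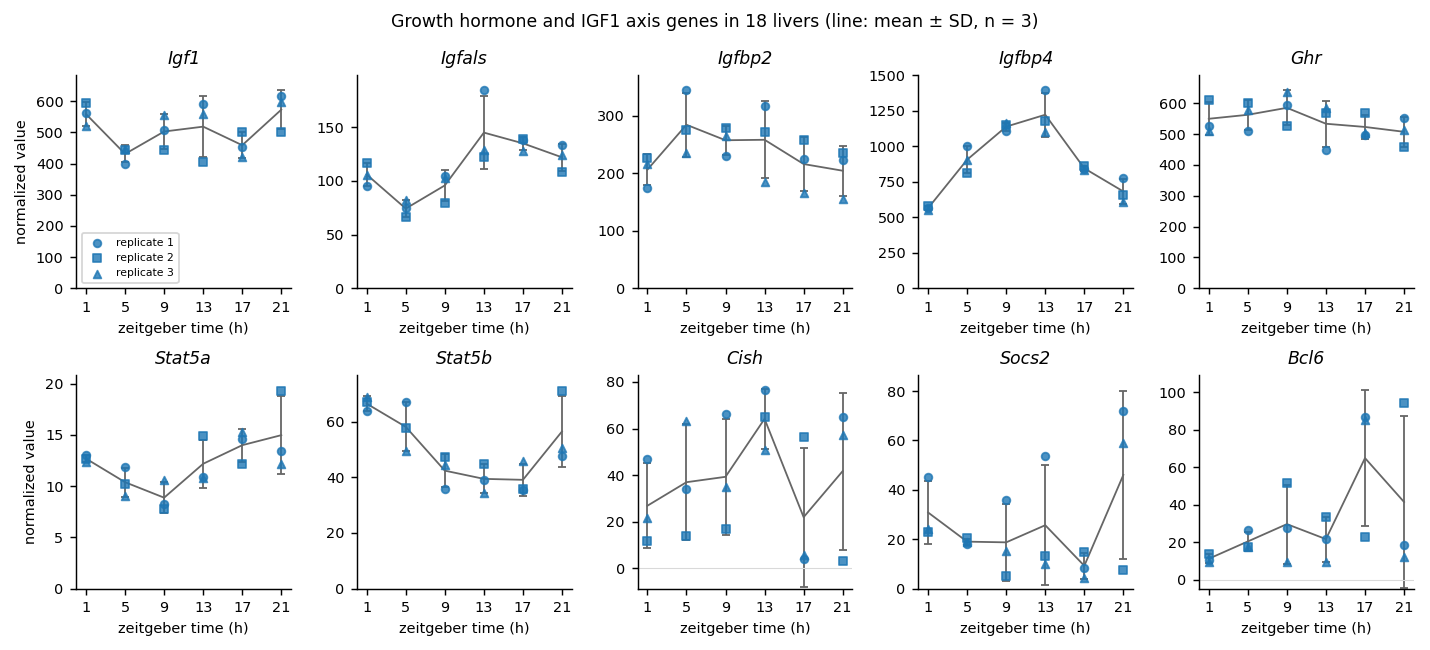
Normalized value of the 10 axis genes in each of 18 livers (points, shape by replicate) against zeitgeber time in hours, with the mean ± SD of the 3 livers of a time point (line and bars). Igfbp4 rises from 564 at ZT1 to 1222 at ZT13 with little spread, and the 3 livers of one time point lie far apart for Cish, Socs2 and Bcl6.

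Igf1, the secreted growth factor, was the steadiest of the hormone-induced genes. Igf1 in replicates 1, 2 and 3 was at ZT1 564, 593 and 519, at ZT5 399, 445 and 448, at ZT9 507, 445 and 556, at ZT13 591, 406 and 559, at ZT17 454, 502 and 420.1 and at ZT21 617, 502 and 599. The highest of all 18 livers was 1.55 times the lowest, and the means ran from 431 ± 27.2 (SD, n = 3) at ZT5 to 573 ± 61.9 at ZT21, time points whose livers did not overlap. Neither limma test made a call (adjusted p = 0.456 for 24 h and 0.149 over time points), and the fitted difference was 0.20 ± 0.13 (log2 ± SE). Neighbours in the order of time point means overlapped in each of the 5 cases.

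Igfals, which joins IGF1 and a binding protein in a long-lived complex in blood, was higher in the dark phase. Igfals in replicates 1, 2 and 3 was at ZT1 95.6, 117 and 105, at ZT5 74.5, 66.0 and 82.1, at ZT9 105, 79.4 and 103, at ZT13 184, 122 and 128, at ZT17 138, 139 and 128 and at ZT21 134, 108 and 124. All livers of ZT13, ZT17 and ZT21 except ZT21 replicate 2 stood above all livers of ZT1, ZT5 and ZT9, and that liver, at 108, was below ZT1 replicate 2 alone. The means were 145 ± 34.2 at ZT13 and 74.2 ± 8.05 at ZT5 (SD, n = 3). The fitted difference was 0.83 ± 0.14 (log2 ± SE), the fitted peak was at ZT16.8 ± 0.64 h, and all 3 tests made a call (limma adjusted p = 0.000699 and 0.00223, JTK q = 0.0109).

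Igfbp4, a binding protein that mostly holds IGF1 away from its receptor, had the clearest rhythm of the 10. Igfbp4 in replicates 1, 2 and 3 was at ZT1 566, 577 and 549, at ZT5 1001, 811 and 905, at ZT9 1106, 1149 and 1161, at ZT13 1394, 1175 and 1098, at ZT17 841, 862 and 832 and at ZT21 779.6, 660.2 and 605. The 3 livers of ZT1 were the 3 lowest of all, and the livers of ZT9 and ZT13 were all above those of every other time point. The ZT13 mean of 1222 ± 154 was 2.17-fold the ZT1 mean of 564 ± 14.3 (SD, n = 3). The fitted difference was 1.07 ± 0.10 (log2 ± SE) with a peak at ZT11.2 ± 0.36 h (limma adjusted p = 1.98e-06, JTK q = 0.00758). The JTK order that gave this q had a period of 20 h. Its levels in the neighbouring pairs ZT9 and ZT5, ZT17 and ZT21, and ZT21 and ZT1 did not overlap.

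Igfbp2, a binding protein made by hepatocytes, varied more between animals than over the day. Its values lay between 155 and 344 with a median of 232, and the highest mean, 284 ± 55.6 at ZT5, and the lowest, 204 ± 43.6 at ZT21, came from livers whose ranges overlapped. The fitted difference of 0.47 ± 0.17 (log2 ± SE) had an adjusted p of 0.0966. On a length scale, where a value is divided by the kilobases of exon of the gene, Igfbp4 (202) and Igfbp2 (129) stood above Igf1 (51.2) and Igfals (35.7).

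Ghr, the receptor, changed little. Its values lay between 447 and 637 with a median of 540, the largest mean was 585 ± 56.6 at ZT9 and the smallest 507 ± 47.7 at ZT21, and all 5 pairs of neighbours in the order of means overlapped. The fitted difference was 0.18 ± 0.09 (log2 ± SE, adjusted p = 0.298).

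Both STAT5 genes, which lie side by side on chromosome 11 and encode near-identical transcription factors, had a rhythm, at different hours. Stat5b in replicates 1, 2 and 3 was at ZT1 63.8, 67.0 and 68.9, at ZT5 67.1, 57.9 and 49.6, at ZT9 35.7, 47.3 and 44.3, at ZT13 39.0, 44.9 and 34.5, at ZT17 35.6, 36.0 and 45.8 and at ZT21 47.8, 71.2 and 50.6. Stat5b was high at ZT1 in all 3 livers and low from ZT9 to ZT17, and ZT21 replicate 2 held the highest value of all. Its mean fell from 66.5 ± 2.59 at ZT1 to 39.1 ± 5.80 at ZT17 (SD, n = 3), with a fitted difference of 0.82 ± 0.13 (log2 ± SE) and a peak at ZT1.45 ± 0.60 h (limma adjusted p = 0.000366). The JTK q was 0.0282, and it was 0.0598 without ZT5 replicate 3.

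Stat5a in replicates 1, 2 and 3 was at ZT1 13.0, 12.6 and 12.4, at ZT5 11.9, 10.2 and 9.09, at ZT9 8.27, 7.75 and 10.6, at ZT13 10.9, 14.9 and 10.8, at ZT17 14.6, 12.2 and 15.3 and at ZT21 13.5, 19.3 and 12.2. Stat5a was low at ZT9 and had its highest value in ZT21 replicate 2, the same liver as for Stat5b. The mean was 15.0 ± 3.82 at ZT21 and 8.87 ± 1.51 at ZT9, with a fitted difference of 0.64 ± 0.13 (log2 ± SE) and a peak at ZT19.8 ± 0.78 h (limma adjusted p = 0.00359). Over time points its adjusted p was 0.0370, and 0.0577 without ZT5 replicate 3, and JTK made no call (q = 0.0852). Per kb of exon, Stat5b (9.10) stood above Stat5a (1.71). RSEM divides reads that match both genes, so a small shift between them is uncertain.

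Cish and Socs2 encode SOCS-family proteins that switch the receptor off, and both are used as signs of recent growth hormone action. Cish in replicates 1, 2 and 3 was at ZT1 47.1, 11.7 and 21.7, at ZT5 33.9, 13.6 and 63.2, at ZT9 66.2, 16.7 and 34.8, at ZT13 76.4, 65.1 and 50.9, at ZT17 3.74, 56.4 and 5.61 and at ZT21 65.0, 3.04 and 57.1. The 18 livers spanned 25.2-fold, from 3.04 in ZT21 replicate 2 to 76.4 in ZT13 replicate 1. Within ZT17, replicate 2 was at 56.4 and the other two livers at 3.74 and 5.61, and within ZT21 the replicates 1 and 3 were at 65.0 and 57.1 and replicate 2 at 3.04. The 3 livers of ZT13 were all high (50.9 to 76.4), and at the other 5 time points the highest liver was more than 2-fold above the lowest.

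Socs2 in replicates 1, 2 and 3 was at ZT1 45.4, 22.9 and 24.2, at ZT5 17.95, 20.3 and 18.7, at ZT9 35.7, 5.16 and 15.3, at ZT13 53.7, 13.3 and 9.93, at ZT17 8.45, 14.8 and 4.45 and at ZT21 71.8, 7.33 and 59.0. Socs2 spanned 16.2-fold, from 4.45 in ZT17 replicate 3 to 71.8 in ZT21 replicate 1. The 3 livers of ZT5 were nearly alike, between 17.95 and 20.3, and those of ZT21 were 9.79-fold apart. The livers of the highest mean, ZT21 with 46.0 ± 34.1, overlapped those of the lowest, ZT17 with 9.22 ± 5.20 (SD, n = 3).

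Bcl6 in replicates 1, 2 and 3 was at ZT1 10.4, 14.0 and 9.47, at ZT5 26.6, 17.4 and 17.5, at ZT9 27.9, 51.7 and 9.70, at ZT13 21.8, 33.7 and 9.68, at ZT17 86.7, 23.1 and 85.2 and at ZT21 18.4, 94.3 and 12.0. Bcl6 was low in all 3 livers of ZT1 (9.47 to 14.0) and reached 86.7, 85.2 and 94.3 in ZT17 replicates 1 and 3 and ZT21 replicate 2. These 3 livers were also the 3 lowest in Cish, with 3.74, 5.61 and 3.04. The livers of ZT17 (65.0 ± 36.3) and ZT1 (11.3 ± 2.39; SD, n = 3) did not overlap.

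No test made a call of time of day for Cish, Socs2 or Bcl6. Their fitted differences were 1.26 ± 0.85 for Cish, 1.11 ± 0.66 for Socs2 and 1.30 ± 0.62 for Bcl6 (log2 ± SE), with limma adjusted p of 0.454, 0.371 and 0.223. Leaving out 1 liver moved the fitted difference of Cish to between 0.68 (without ZT21 replicate 2) and 1.76, that of Socs2 to between 0.93 and 1.65, and that of Bcl6 to between 0.99 and 1.64. The SD between livers of the same time point was 1.42 (log2) for Cish, 1.09 for Socs2 and 0.98 for Bcl6, where the median over the 12480 genes with a mean of at least 1 was 0.18. From the widest down, these 3 genes ranked 10, 26 and 52 among the 12480. The other 7 genes ranked from 1898 (Igfbp2) to 9418 (Igfbp4), and Igf1 was at 6642 with an SD of 0.17. This measure was chosen after the values had been seen. Rescaling, another pseudocount or leaving out any 1 liver kept Cish between rank 6 and 42, Socs2 between 21 and 84 and Bcl6 between 37 and 115.

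**Figure D2:**
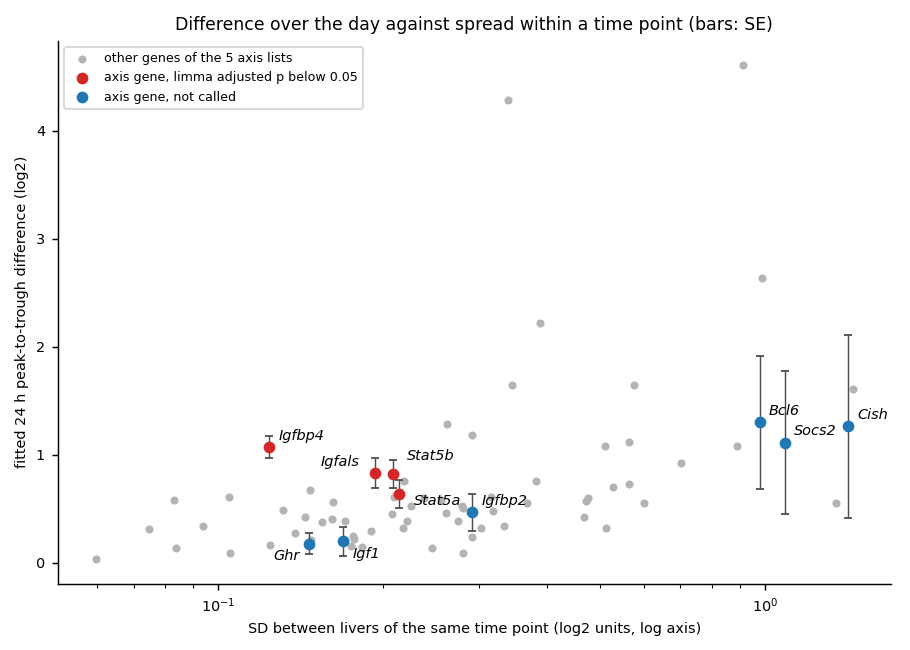
Fitted 24 h peak-to-trough difference (log2, bars are SE) against the SD between livers of the same time point (log2 units, log axis), for the 10 axis genes (red where limma called a rhythm, blue otherwise) and the other genes of the 5 axis lists (grey). Igfbp4 combines a difference of 1.07 with an SD of 0.12, while Bcl6, Socs2 and Cish lie at the right with SDs from 0.98 to 1.42.

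Each liver was next compared with the mean of its own time point. This takes out the mean differences between time points, but not a shift in clock time between animals of the same time point. The question was whether the hormone-responsive genes moved together from animal to animal. Cish and Socs2 did, and Igf1 and Bcl6 moved in opposite ways, though both calls were lost without ZT21 replicate 2. For Cish and Socs2, Pearson's r was 0.77 and Spearman's rho 0.67 over 18 livers (two-sided exact permutation within time points, p = 0.00189 and 0.00649, adjusted over 6 pairs 0.0113 and 0.0195), and both deviated to the same side in 13 of 18 livers. Without ZT17 replicate 2 and ZT21 replicate 2, the livers farthest out in Cish, r was 0.55 (exact permutation p = 0.0311, not adjusted) and rho 0.48 (p = 0.0916, not adjusted). Without ZT21 replicate 2 alone the adjusted p of r was 0.0667, so the call by r rests on that liver. The call by rho was lost more often. Its adjusted p rose to between 0.0521 and 0.102 without ZT1 replicate 1, ZT13 replicate 2, ZT17 replicate 2 or any single liver of ZT21.

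Igf1 and Bcl6 lay on opposite sides in 14 of 18 livers, with r of -0.72 and rho of -0.78 (exact permutation p = 0.00744 and 0.00568, adjusted 0.0223 and 0.0195). Igf1 deviated far less than Bcl6, by between -0.33 and 0.21 (log2) against -1.24 and 1.72. Without ZT13 replicate 2 and ZT21 replicate 2, r was -0.65 and rho -0.47 (exact permutation p = 0.0934 and 0.177), so the call rests on those livers. Leaving out any 1 of 7 livers (the 3 of ZT9, the 3 of ZT21 or ZT17 replicate 2) also raised the adjusted p to between 0.0577 and 0.133, with r between -0.73 and -0.66.

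The other 4 pairs missed the threshold. Cish and Bcl6 had r of -0.70 and rho of -0.57 (exact permutation p = 0.0425 and 0.0608, adjusted 0.0731 and 0.0911), and without ZT17 replicate 2 and ZT21 replicate 2 r was -0.14 and rho 0.05, so that relation rests on those livers. Socs2 and Igf1 had r of 0.63 and rho of 0.61 (exact permutation p = 0.0542 and 0.0600, adjusted 0.0731 and 0.0911), and 0.36 for r without ZT13 replicate 1 and ZT21 replicate 2. Cish and Igf1 had r of 0.44 and rho of 0.46 (exact permutation p = 0.0610 and 0.0820, adjusted 0.0731 and 0.0984), and r of 0.08 without ZT17 replicate 2 and ZT21 replicate 2. Socs2 and Bcl6 had r of -0.56 and rho of -0.52 (exact permutation p = 0.128 and 0.118, also after adjustment), and r of -0.40 without ZT13 replicate 1 and ZT21 replicate 2.

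**Figure D3:**
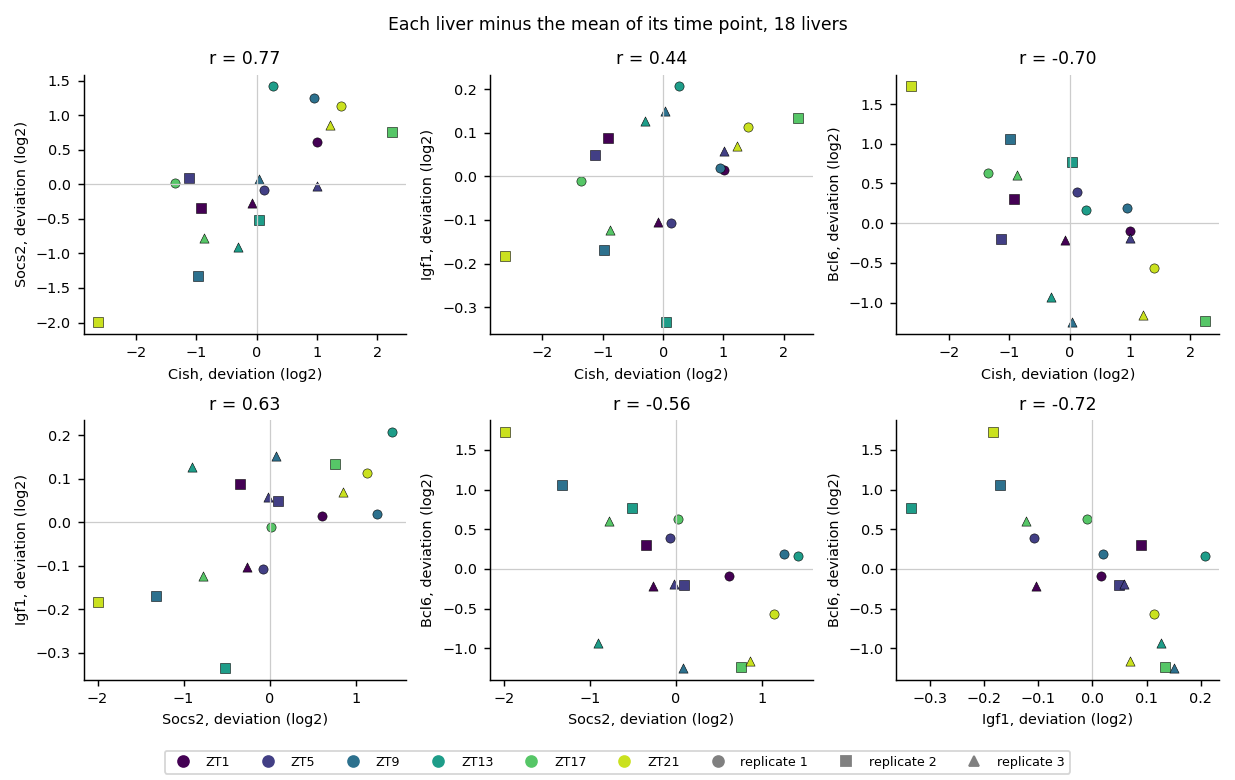
Deviation of each of 18 livers from the mean of its time point (log2), for the 6 pairs of Cish, Socs2, Igf1 and Bcl6, with colour for zeitgeber time, shape for replicate and Pearson's r above each panel. ZT21 replicate 2 (yellow square) is lowest in Cish and Socs2 and highest in Bcl6, and it lies far from the other livers in the panels of these genes.

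Signs of other cell types and of depth are given for the livers that set these relations. ZT17 replicates 1 and 3 and ZT21 replicate 2 had 15204349, 15184364 and 11938153 estimated reads. Their summed hepatocyte markers were 97268, 85335 and 86139. Their summed Kupffer cell markers (5 genes) were 145, 201 and 130, where all livers, these included, ran from 86.7 to 230. The Kupffer cell sums of the other livers of their time points were 86.7 in ZT17 replicate 2 and 87.4 and 137 in ZT21 replicates 1 and 3. In ZT17 replicate 2, the Cish-high liver of its time point, the Kupffer cell sum was 86.7, the lowest of all, and the sum of 5 sinusoidal endothelium markers 99.7, also the lowest. ZT21 replicate 1, the liver highest in Cish at ZT21, was next lowest in both sums, at 87.4 and 103. Stellate cell (5 genes), cholangiocyte (4), red cell (3) and neutrophil (2) sums ran from 153 to 242, 5.58 to 15.1, 93.6 to 190 and 0.246 to 2.24. No marker was at the floor in any liver, but the 2 neutrophil markers were close to it. S100a8 lay between 0.101 and 0.792 and S100a9 between 0.123 and 1.44, where the floor of a liver lay between 0.0208 and 0.0478. The neutrophil sum thus rests on few reads. Deviations of Cish, Socs2 and Bcl6 were set against those of depth and of the 7 marker sums, 24 relations that were added after the values were seen. None passed after adjustment, and by Pearson's r 1 had an unadjusted p below 0.05, that of Socs2 and the neutrophil sum (r = -0.63 and rho = -0.65, exact permutation p = 0.0173 and 0.0192, adjusted 0.416 and 0.291). Without ZT9 replicate 2 and ZT17 replicate 3, the livers farthest out in that sum, r was -0.46. Bcl6 and the neutrophil sum had an unadjusted p below 0.05 for rho alone, with r of 0.53 and rho of 0.63 (exact permutation p = 0.0626 and 0.0242, adjusted 0.708 and 0.291), and r was 0.35 without the same livers. For Cish and the cholangiocyte sum r was -0.59 and rho -0.51 (exact permutation p = 0.106 and 0.119, adjusted 0.708 and 0.532), and r was -0.23 without ZT17 replicate 2 and ZT21 replicate 3. Cish and the endothelium sum had r of -0.44 and rho of -0.40 (exact permutation p = 0.231 and 0.227, adjusted 0.708 and 0.682). Without ZT17 replicate 2 and ZT21 replicate 1, that r was 0.06.

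Among the transcription factors tied to growth hormone in liver, 5 of 10 had a 24 h rhythm by limma (35.3% of all genes) and 3 also by JTK (13.9% of all genes were called by both), namely Hnf4a, Esr1 and Nr3c1. Limma called 3 without ZT9 replicate 1, and JTK 1 without any 1 of 8 livers (the 3 of ZT1, ZT5 replicate 2, ZT9 replicate 1 or 3, ZT13 replicate 1, ZT17 replicate 1). Hnf4a, the master regulator of hepatocyte genes, ran from 453 ± 8.74 at ZT1 to 699 ± 76.2 at ZT13 (SD, n = 3; fitted difference 0.49 ± 0.10, log2 ± SE). Esr1, the oestrogen receptor, ran from 15.8 ± 3.81 at ZT5 to 40.3 ± 9.94 at ZT13 (1.28 ± 0.18), and Nr3c1, the glucocorticoid receptor, from 88.9 ± 1.44 at ZT17 to 114 ± 13.8 at ZT9 (0.31 ± 0.07).

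Onecut1 (HNF6), a liver factor that growth hormone is known to raise, had no call and varied like Cish. It and Foxa2 were singled out after their values were seen. Onecut1 in replicates 1, 2 and 3 was at ZT1 123, 50.8 and 52.6, at ZT5 21.4, 21.9 and 74.4, at ZT9 125, 7.31 and 44.0, at ZT13 163, 87.4 and 112, at ZT17 20.7, 86.9 and 20.5 and at ZT21 134, 12.4 and 150.1. The lowest livers were ZT9 replicate 2, ZT21 replicate 2 and ZT17 replicates 1 and 3, and the last 3 of these were the 3 lowest in Cish. Its SD within time points was 1.35 (log2). Foxa2, a pioneer factor of hepatocytes, was of all 12480 genes the one whose deviations were most like those of Cish (r = 0.94 over 18 livers). Foxa2 in replicates 1, 2 and 3 was at ZT1 32.6, 15.6 and 24.3, at ZT5 19.4, 18.1 and 23.4, at ZT9 24.6, 14.4 and 16.2, at ZT13 61.0, 43.8 and 38.2, at ZT17 14.4, 42.4 and 18.8 and at ZT21 44.6, 17.4 and 38.3. Foxa2 was high in all 3 livers of ZT13 and in ZT17 replicate 2 and ZT21 replicates 1 and 3, the same livers of the dark phase as for Cish.

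Of the other IGF genes, 8 of 12 were listed, 4 of them with a 24 h rhythm by limma (against 35.3% of all genes) and 2 also by JTK (against 13.9% called by both). Igfbp1, a binding protein of the fasted liver, had the largest difference of the genes of the axis lists. Igfbp1 in replicates 1, 2 and 3 was at ZT1 96.0, 125 and 198, at ZT5 48.9, 40.2 and 9.18, at ZT9 5.58, 29.96 and 15.8, at ZT13 1.52, 1.33 and 7.86, at ZT17 11.8, 6.71 and 12.0 and at ZT21 39.3, 108 and 56.9. Igfbp1 was at 140 ± 52.7 at ZT1 and 3.57 ± 3.72 at ZT13 (SD, n = 3), the fitted difference was 4.61 ± 0.57 (log2 ± SE, limma adjusted p = 4.18e-05), and the peak was at ZT0.649 ± 0.48 h. ZT21 replicate 2, low in Cish and Socs2, held the highest Igfbp1 value of its time point. Igf2r, the receptor that clears IGF2, ran from 31.4 ± 0.79 at ZT17 to 46.7 ± 1.29 at ZT5 (0.58 ± 0.07). Igf1r was low in liver, between 1.36 and 3.62, and Igf2 was at the floor in 3 livers.

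Of the genes of receptor signalling, 20 of 21 were listed, 7 with a 24 h rhythm by limma (35.0%, where all genes gave 35.3%), 6 by the F test over time points and 3 by JTK. The 3 called by both limma and JTK were Tyk2, Socs7 and Irs2. Irs2, an adaptor shared with insulin signalling, fell from 34.1 ± 12.9 at ZT1 to 5.09 ± 1.24 at ZT13 (SD, n = 3; 2.22 ± 0.27, log2 ± SE). Tyk2, a JAK kinase, ran from 14.2 ± 0.82 at ZT17 to 22.9 ± 1.61 at ZT5 (0.61 ± 0.09), and Socs7, of the same family as Cish, from 11.8 ± 0.65 at ZT1 to 19.7 ± 0.85 at ZT9 (0.68 ± 0.12). Jak2, the kinase of the receptor itself, was called by both limma tests and not by JTK (q = 0.0542), with 21.4 ± 4.10 at ZT5 and 14.4 ± 2.04 at ZT17.

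**Figure D4:**
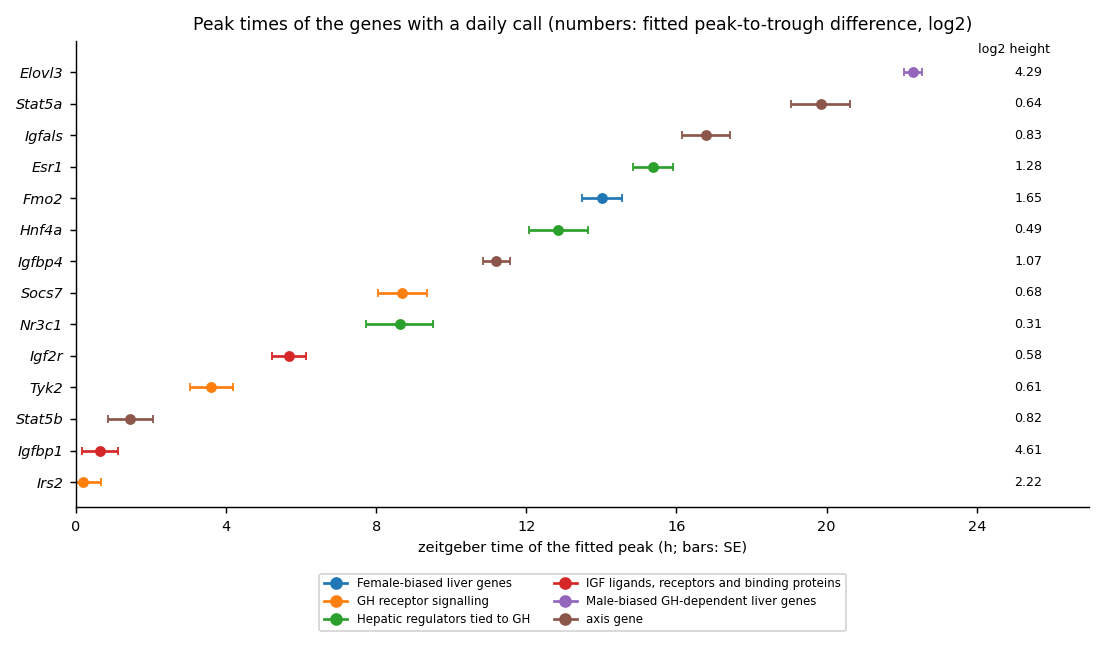
Fitted peak time (zeitgeber hours, bars are SE) of the 4 axis genes with a limma call and of the genes of the 5 axis lists called by both limma and JTK, coloured by list, with the fitted peak-to-trough difference (log2) at the right. Peaks are spread over the whole day, from Irs2 and Igfbp1 near lights on to Igfbp4 at ZT11.2 and Elovl3 at ZT22.3.

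Growth hormone pulses keep male-biased liver genes high in males, and of 19 such genes 4 had a 24 h rhythm by limma (21.1%, against 35.3% of all genes), 10 passed the F test over time points (against 26.3%) and 1, Elovl3, was also called by JTK (5.26%, against 14.0%). Leaving out 1 liver at a time gave 7 to 14 by the F test. Without any 1 of 5 livers (ZT5 replicate 1, the 3 of ZT9 or ZT21 replicate 1) JTK called 2. Elovl3, a fatty acid elongase, was at 791 ± 49.0 at ZT1 and 38.1 ± 8.65 at ZT9 (SD, n = 3; 4.29 ± 0.27, log2 ± SE). The list was lowest in 2 livers of ZT5. Its median difference from the mean over 18 livers was -0.55 (log2) in ZT5 replicate 1 and -0.53 in ZT5 replicate 3, and between -0.30 and 0.40 in the others, over 18 genes with a mean of at least 1. Mup7, a urinary pheromone carrier, was at 1086 and 4158 in those 2 livers and at 9860 to 24672 in the other 16, but its reads are shared with near-identical Mup genes.

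Female-biased genes were low, and 4 of them fell to the floor, the value that stands for 0 reads, in some livers. Of 15 in the list 8 had values, and 3 of the 8 had a 24 h rhythm by limma (37.5%, against 35.3% of all genes), 4 passed the F test over time points (against 26.3%) and 2 JTK (against 14.0%). The 4 became 2 without any 1 of 5 livers (the 3 of ZT1, ZT17 replicate 3 or ZT21 replicate 3), and the 2 became 1 without any 1 of 8 (the 3 of ZT5, the 3 of ZT13, ZT17 replicate 1 or 2). Fmo2, a flavin monooxygenase called by limma and JTK, was at 35.1 ± 11.5 at ZT13 and 9.32 ± 2.57 at ZT5 (SD, n = 3; 1.65 ± 0.23, log2 ± SE). Cyp2a4, a steroid hydroxylase, was at 88.4 in ZT5 replicate 1 and at most 6.997 in the other livers, and it has a near-identical copy. That liver was also lowest in Mup7, while its Cish (33.9), Socs2 (17.95) and Bcl6 (26.6) lay inside the range of the other livers.

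**Figure D5:**
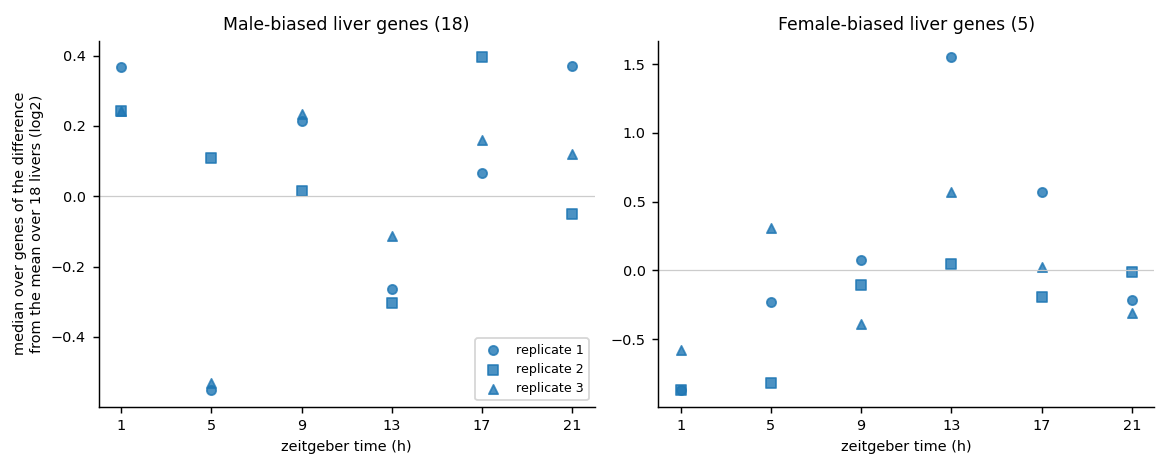
Median over genes of the difference from the mean over 18 livers (log2) in each liver against zeitgeber time in hours, for 18 male-biased and 5 female-biased genes with a mean of at least 1, with shape for replicate. ZT5 replicates 1 and 3 lie lowest for male-biased genes at -0.55 and -0.53, and ZT13 replicate 1 lies highest for female-biased genes at 1.55.

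Genes whose values ran most like the 4 rhythmic ones over the 18 livers were found by Pearson's r of log2 values among 12480 genes. They were Nrg4, Tnks1bp1 and Por for Igfbp4 (r = 0.94, 0.94 and 0.94), Tysnd1, Serf2 and Slc16a6 for Igfals (0.92, 0.92 and 0.91), St6galnac6, Gm12590 and Tor3a for Stat5a (0.89, 0.86 and 0.86) and Ndrg1, Ocln and Zc3hav1 for Stat5b (0.90, 0.88 and 0.87). By deviations from the time point means, a measure added after the values were seen, Xbp1 was nearest to Socs2 (r = 0.91) and Rassf8 to Bcl6 (0.90), and Trp53inp1 ran opposite to Socs2 (-0.90). These r values are the highest or lowest of many, describe these livers, and carry no test.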

How the data were processed

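RNA of 18 livers was sequenced by the authors with the NEBNext Ultra RNA kit on a HiSeq2500. Per the labels and the study's methods, reads were trimmed with cutadapt, mapped to GRCm38 and quantified with RSEM 1.2.20, with CASAVA 1.8.2 also named in the submitters' processing notes, and normalized with limma. Whether the counting used strand is not given in the sources used here. The deposited values are a normalized signal on a linear scale. From the lowest value of a liver it follows that 0.5 was added to every estimated count before division by a library size that the authors had adjusted and multiplication by 1000000. Between 39.1% and 47.9% of the values per liver gave whole reads within 0.005, since RSEM divides reads among genes, so no count test was run.

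Values were tested as log2(value + 1) in 14449 genes, with 2 genes at the floor in every liver left out. The log2 scale with this pseudocount understates the change of low genes. limma 3.58.1 (R 4.3.3) fitted a cosine and a sine of 24 h, and the 6 time points as a factor, each with a moderated F test and Benjamini–Hochberg adjustment. JTK was written in Python 3.11.15 (numpy 2.4.6, scipy 1.17.1, pandas 2.3.3) with orders of 20, 24 and 28 h and Bonferroni adjustment over 18 orders. Its null was that of 6 separate groups of 3, though time points can have equal cosines in an order, so its p-values are not exact. With equal cosines as 1 group it called 3237 genes against 2018, so a missing JTK call partly depends on this choice. CircaN and MetaCycle, which the study also used, were not run here. For pairs of genes, deviations from time point means were tested by 46656 exact permutations within time points, two-sided. SDs within time points rested on 12 residual degrees of freedom.

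The axis genes and the lists were chosen with earlier results of these data known. Named by rule were the 10 genes and, from 5 axis lists, each gene called by limma for 24 h and by JTK. Onecut1, Foxa2, Jak2, Igf1r, Igf2, Mup7 and Cyp2a4 were named outside this rule. Replicate numbers follow the order of the labels and pair nothing. Alternatives covered the pseudocount (0.1), rescaling to 1000000, a mean of at least 1, limma with a trend, the JTK orders, a threshold of 0.01 and leaving out each liver. The tests were checked on simulated data with 50 genes at each size of difference. At 0.25 (log2), limma for 24 h found 10 of 50, the F test over time points 1 and JTK 2. At 0.5 they found 37, 19 and 9, and at 1.5 they found 50, 50 and 49. A missing call for a gene with a small fitted difference, such as Igf1, Ghr or Igfbp2, thus does not show that it was flat. Windows and coordinates are those of RefSeq (GRCm38.p6) and GENCODE M21 (GRCm38).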

Additional observations from a re-analysis of the deposited data

How the results depend on the processing

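All 4 axis genes called by limma for 24 h stayed called under every alternative and when any 1 liver was left out, and no value with a test across all genes and no Pearson's r of a pair changed direction, while rho of Cish and Bcl6, -0.57 over 18 livers, was 0.02 without ZT17 and ZT21. Stat5a lost its call over time points when values were rescaled (adjusted p = 0.0874), at a threshold of 0.01 and without any 1 of 9 livers. Stat5a gained a JTK call with 24 h orders alone (q = 0.0377) and without ZT13 replicate 2 or ZT21 replicate 3 (q between 0.0373 and 0.0478). Stat5b lost its JTK call without any 1 of 8 livers (q between 0.0539 and 0.0813), Igfbp2 gained a 24 h call when rescaled (0.0417), and Igf1 one over time points without ZT13 replicate 2 (0.0416).

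At a threshold of 0.01, limma called 2862 genes for 24 h (5103 at 0.05), of them 15 axis genes outside the 10 (23 at 0.05) and 2 cell type markers (7 at 0.05), and over time points 1924 genes (3802 at 0.05), 11 axis genes (25) and 1 marker (4). JTK then called 298 genes, 1 of the 10, 2 other axis genes and 0 markers (2018, 3 of the 10, 11 and 2 at 0.05), where limma called 2 markers. With equal cosines as 1 group JTK called 3237 genes and 4 of the 10, and with rescaled values 1 marker. Leaving out 1 liver at a time gave 6 to 11 markers for 24 h, 1 to 5 over time points and 0 to 3 by JTK, 7 to 11 other axis genes by JTK, and 1127 to 1793 genes by JTK, with 1127 to 1338 without ZT5 replicate 2, ZT17 replicate 1 or ZT17 replicate 2.

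Leaving out 1 liver gave r between 0.59 and 0.83 for Cish and Socs2, -0.83 and -0.66 for Igf1 and Bcl6, -0.78 and -0.50 for Cish and Bcl6, 0.53 and 0.76 for Socs2 and Igf1, 0.27 and 0.63 for Cish and Igf1, and -0.74 and -0.27 for Socs2 and Bcl6. Without ZT17 and ZT21, an alternative chosen after seeing the data, r was 0.60 for Cish and Socs2 (adjusted p = 0.130 by exact permutation) and -0.66 for Igf1 and Bcl6 (0.384), and the other pairs were at 0.47 for Socs2 and Igf1, -0.15 for Cish and Bcl6, 0.10 for Cish and Igf1 and -0.13 for Socs2 and Bcl6. Without ZT13 replicate 3, Cish with Bcl6, Cish with Igf1 and Socs2 with Bcl6 passed (each adjusted p = 0.0446), and Socs2 with Igf1 did so without ZT13 replicate 2 or 3. The causes of these shifts were not tested. No paired analysis was possible because the labels give no replicate numbers and every liver came from another animal.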
